A study of Mus musculus with 10 samples.

Results

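The cell cycle and p53 pathways are known to hold barriers to the reprogramming of fibroblasts. The genes described here are 10 genes of these pathways: Cdkn2a, Cdkn2b, Cdkn1a, Cdkn1b, Cdkn1c, Trp53, Mdm2, Rb1, Ccnd1 and Ccnd2. They were taken by symbol from a deposited table of ATAC-seq density, and all 10 were found among its 21965 genes. ATAC-seq measures how open chromatin is, by letting a transposase insert sequencing adapters into accessible DNA. The cells were mouse embryonic fibroblasts (MEFs, strain label ICR) from embryonic day 13.5 embryos with a GFP transgene under the Oct4 promoter, used at an early passage.

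All 10 conditions were infected with pMXs retrovirus and kept in mouse embryonic stem cell medium. Flag was the control virus. The labels give Sox2, Klf4, Oct4 and Oct4-L80A (an Oct4 mutant) as single factors; a Sox2 signal in the library labelled Oct4 is described below. SKO was Sox2, Klf4 and Oct4 together, SKO-L80A had the mutant in place of Oct4, and SKO+shBrg1 added a short hairpin RNA against Brg1 to SKO. SKO-L80A+Vc had vitamin C at 50 µg/ml in the medium, and SKO-L80A+Ga had a virus for Gadd45a in addition. The sources used here state neither the time after infection nor a selection of infected cells. Each condition had 1 library with 2 columns in the table. No difference therefore carries replicate error, and no test or p-value is given. Both columns are printed, column 1 before column 2. A bulk library cannot tell a change in every cell from a change in the share of cells.

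As background, the 10 genes act in the control of the G1 phase, some as brakes and some against them. D-type cyclins (Ccnd1, Ccnd2) activate CDK4 and CDK6, which phosphorylate the retinoblastoma protein (Rb1) and so release E2F factors for S phase. The INK4 inhibitors p16Ink4a (from Cdkn2a) and p15Ink4b (from Cdkn2b) block CDK4 and CDK6, whereas the CIP/KIP inhibitors p21 (Cdkn1a), p27 (Cdkn1b) and p57 (Cdkn1c) act on cyclin-CDK complexes more broadly. Cdkn2a also encodes Arf from an alternative start. Arf restrains Mdm2, the ubiquitin ligase that degrades p53 (Trp53), and p53 in turn activates Cdkn1a and Mdm2. Loss of Arf, p53 or p21 is known to raise the efficiency of reprogramming of fibroblasts.

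The values followed the region around a gene's start and not its body. In the table, neighbouring genes with facing starts at most 250 bp apart and bodies that do not overlap (377 pairs) had a median absolute log2 difference of 0.000141 in signal. Facing starts 1000 to 2000 bp apart (33 pairs) differed by 0.0036, and those 5000 to 10000 bp apart (88 pairs) by 0.576. Genes whose ends faced each other within 250 bp (97 pairs) differed by 0.681. Senp8 and Myo9a, whose starts on chromosome 9 lie 199 bp apart, had identical values in all 20 columns. The sources used here do not state the exact window, so each value is called a start-site signal below. Levels are set side by side within a gene and across conditions, and between genes only as a percentile of the table.

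**Figure D1:**
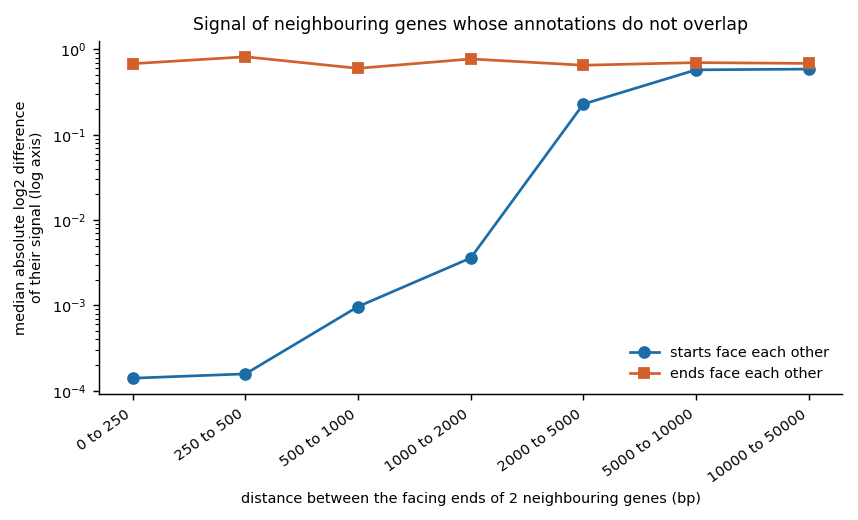
Median absolute log2 difference in signal between neighbouring genes whose annotations do not overlap (log axis), by the distance between their facing ends in bp. Pairs with facing starts up to 250 bp apart differed by 0.000141, pairs with facing ends by 0.681.

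This bears on Trp53 and Cdkn2a. Trp53 (ENSMUSG00000059552, chromosome 11, 69580348 to 69591873, GRCm38.p6) starts 98 bp from Wrap53, a telomerase-associated gene read the other way. The Trp53 and Wrap53 signals differed by at most 0.0001 in any of 20 columns, so the Trp53 value is that of their shared start region. Cdkn2a has RefSeq starts 12427 bp apart, a distal one for the exon of Arf and a proximal one for the exon of p16Ink4a. The single row for Cdkn2a does not say which it reads. Cdkn1a has starts 2790 bp apart. The 250 bases before each of these starts are printed because they show how different the regions behind 1 row can be. They are the RefSeq sequences for GRCm38.p6, the assembly of the authors' build mm10, written 5′ to 3′ on the gene's strand. Capitals mark GC boxes (GGGCGG, either strand), except in the first Cdkn1a sequence, where they mark a match to the p53 response element (a pair of consensus half-sites without spacer, 20 bases, with 1 base allowed to differ, a margin chosen after the sequence was seen).

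Cdkn2a distal start, chr4:89294620-89294869, minus strand: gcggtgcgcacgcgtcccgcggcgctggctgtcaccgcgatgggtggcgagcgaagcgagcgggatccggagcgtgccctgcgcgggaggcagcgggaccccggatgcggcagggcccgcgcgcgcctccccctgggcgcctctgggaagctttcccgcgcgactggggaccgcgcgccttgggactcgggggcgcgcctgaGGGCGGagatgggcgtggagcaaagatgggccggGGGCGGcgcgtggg
Cdkn2a proximal start, chr4:89282193-89282442, minus strand: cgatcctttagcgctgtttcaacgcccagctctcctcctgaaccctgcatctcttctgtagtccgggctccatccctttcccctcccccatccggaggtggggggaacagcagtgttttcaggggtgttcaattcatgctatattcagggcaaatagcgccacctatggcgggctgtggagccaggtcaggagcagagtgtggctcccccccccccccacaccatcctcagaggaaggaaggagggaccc
Cdkn1a upstream start, chr17:29090729-29090978, plus strand: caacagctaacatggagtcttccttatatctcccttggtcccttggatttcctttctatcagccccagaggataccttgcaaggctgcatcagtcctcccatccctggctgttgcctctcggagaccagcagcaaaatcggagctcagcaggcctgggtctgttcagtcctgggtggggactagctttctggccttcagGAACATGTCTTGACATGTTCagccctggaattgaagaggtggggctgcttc
Cdkn1a downstream start, chr17:29093519-29093768, plus strand: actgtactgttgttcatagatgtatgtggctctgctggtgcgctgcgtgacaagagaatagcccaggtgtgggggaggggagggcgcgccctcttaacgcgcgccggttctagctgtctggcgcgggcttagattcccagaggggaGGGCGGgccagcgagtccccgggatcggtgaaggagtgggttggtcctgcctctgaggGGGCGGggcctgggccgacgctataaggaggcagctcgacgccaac
Trp53 start, chr11:69580109-69580358, plus strand: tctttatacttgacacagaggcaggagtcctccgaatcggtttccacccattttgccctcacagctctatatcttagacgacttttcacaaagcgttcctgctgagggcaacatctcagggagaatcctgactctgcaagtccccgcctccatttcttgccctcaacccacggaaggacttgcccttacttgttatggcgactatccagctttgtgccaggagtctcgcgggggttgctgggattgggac

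The distal Cdkn2a sequence was 78.4% G or C with 40 CG dinucleotides and 2 GC boxes, and the proximal one was 60% G or C with 7 CG dinucleotides and none. The median over all 32851 RefSeq promoters was 52.4%, and 32.7% of them held a GC box in the same 250 bases. The upstream Cdkn1a sequence held the p53 element, which begins 51 bases before that start and was found in 0.0761% of promoters. It had 2 CG dinucleotides against 19 at the downstream start, which had 2 GC boxes. Cdkn1b had 1 GC box, Mdm2 had 2, and the windows of Cdkn2b and Trp53 held none. The Klf4 motif GGGNGTG, searched on both strands and present in 26.1% of promoters, occurred 1 time in the distal Cdkn2a window and 2 times before Mdm2. The octamer ATGCAAAT (1.60% of promoters) and the Sox motif CATTGT (10.7%) occurred in none of the 8 windows of the 6 genes with a promoter sequence, which were Cdkn2a, Cdkn2b, Cdkn1a, Cdkn1b, Trp53 and Mdm2. A match describes letters and does not show binding. Rb1, Cdkn1c, Ccnd1 and Ccnd2 are described by values only.

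The 10 genes differed in level. The mean signal over 20 columns was highest for Trp53 (27.8, median percentile 91.8 of the table), Cdkn2b (25.5, percentile 89.1) and Cdkn1a (24.0, percentile 87.3). Cdkn1b had 18.9, Mdm2 17.1, Cdkn2a 16.0, Rb1 15.0 and Ccnd1 13.0, with median percentiles between 65.2 and 79.0. Ccnd2 (10.0, percentile 56.4) and Cdkn1c (7.14, percentile 49.0) were lowest. Each gene lay above the minimum of 6.92 in its mean, as did 11447 genes in all. This minimum is the table's median value.

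Whole libraries shifted as well. In SKO against Flag the median gene moved by 0.97 (log2) in column 1 and 0.09 in column 2, and in SKO+shBrg1 by 1.12 and 0.16. Each difference below is therefore taken on log2(signal + 0.138), minus the median difference of that column over all genes, and averaged over both columns. Differences of low signals are understated by the added 0.138. Levels in the plot by condition, standard deviations and correlations subtract the median of each column instead. The difference of the column medians was larger than the median difference of the genes in SKO (1.23 against 0.97 in column 1, 0.23 against 0.09 in column 2), so the scalings can order Flag and SKO differently at a gene. The fibroblast list (16 of 16 genes in the table, none at 0) had a summed signal of 160 and 246 in Flag and 104 to 300.1 in the other columns, and its median relative to the column median was 0.77 in Flag and between 0.31 and 0.66 elsewhere. Macrophage, endothelial, epithelial and neural lists, each with 10 of 10 genes in the table and none at 0, had mean signals per gene of 1.40 to 4.87, 1.51 to 4.80, 1.40 to 6.25 and 2.57 to 9.89. The medians of the epithelial and neural lists were lowest in Flag, at -1.81 and -0.79, and reached -1.14 and -0.47. The macrophage and endothelial medians were -2.38 and -1.51 in Flag. Elsewhere they lay on both sides of it, from -3.06 to -2.17 and from -2.05 to -0.99. The part of cell makeup in the gene differences was not tested. The library labelled Oct4 had a signal of 62.9 and 55.2 at Sox2, which its label does not name, against 2.73 and 5.12 in Flag. The source of this signal was not tested, and values of that library cannot be assigned to Oct4 alone.

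**Figure D2:**
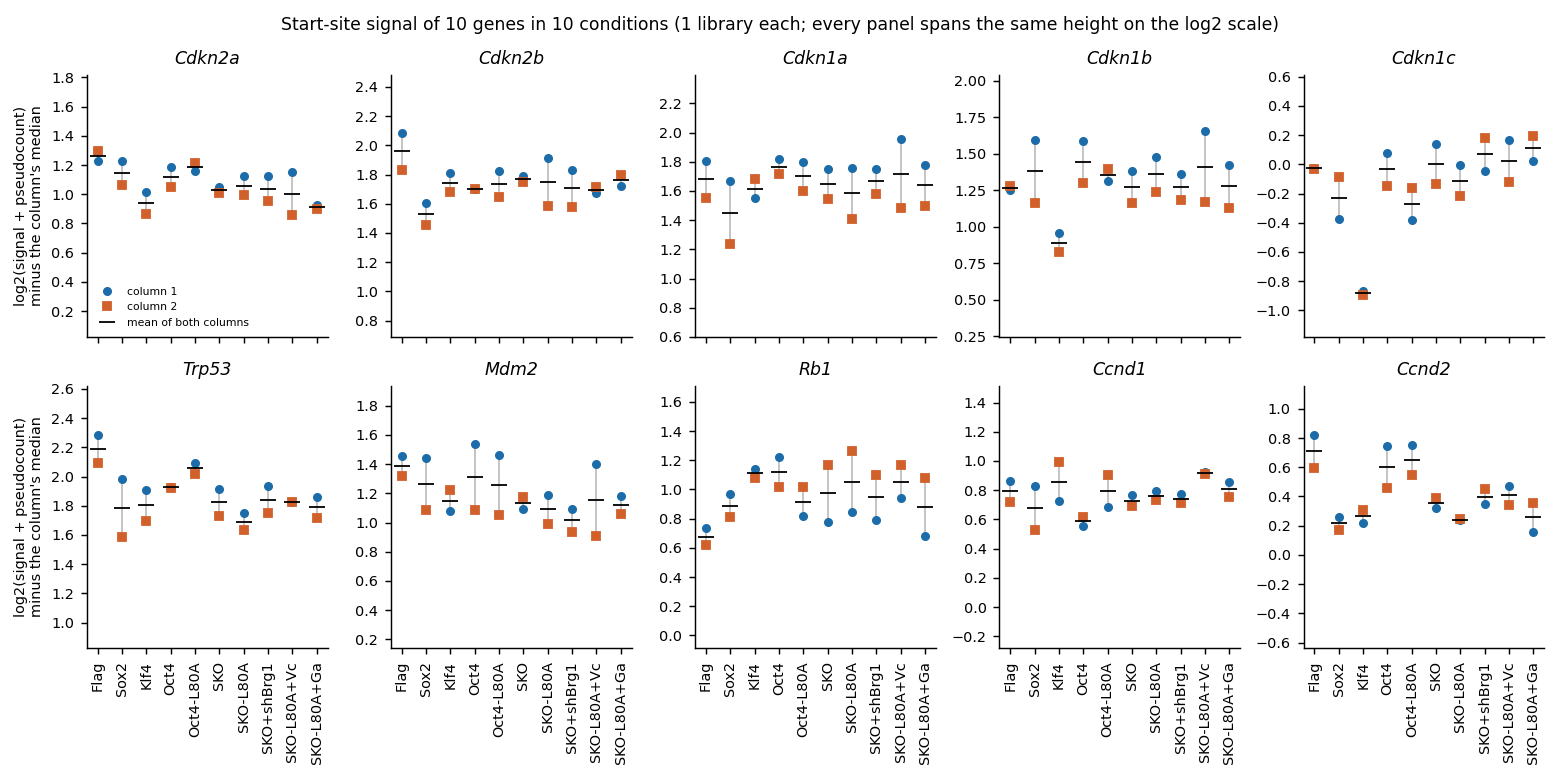
Start-site signal of the 10 genes in 10 conditions, as log2(signal + 0.138) minus the column's median. Circles are column 1, squares column 2, dashes their mean, and every panel spans the same height; Cdkn1c in Klf4 (-0.88) lies 0.61 below its next condition.

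None of the 10 genes changed by 2-fold. A gene was called when the mean difference was at least 2-fold, or, under the other rule, when it was at least 1.5-fold in the same direction in each column, with the higher condition at the minimum signal. Under both rules 0 of 10 genes were called in each of 15 comparisons. Against Flag, the share of all genes called by the 2-fold and the 1.5-fold rule was 0.168% and 0.646% in Sox2, 0.874% and 2.12% in Klf4, 0.255% and 0.797% in Oct4, and 0.0182% and 0.155% in Oct4-L80A. It was 1.33% and 3.03% in SKO, 1.4% and 3.18% in SKO-L80A, 1.36% and 3.16% in SKO+shBrg1, 0.961% and 1.93% in SKO-L80A+Vc, and 0.829% and 1.73% in SKO-L80A+Ga. With shares this small, 0 of 10 is close to the background. The median of the 10 genes against Flag was -0.13 in Sox2, -0.18 in Klf4, 0.02 in Oct4, -0.11 in Oct4-L80A, 0.08 in each of SKO, SKO-L80A and SKO+shBrg1, 0.01 in SKO-L80A+Vc and 0.02 in SKO-L80A+Ga. Over all genes at the minimum it was -0.14, -0.10, 0.05 and -0.12 in the first 4 of these, 0.07, 0.09 and 0.08 in the next 3, and -0.02 and 0.01 in the others. On the deposited values without centring, Rb1 passed both rules in SKO (1.03), SKO-L80A (1.12) and SKO+shBrg1 (1.13), where 4.79% to 12.5% of all genes passed the same rules.

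**Figure D3:**
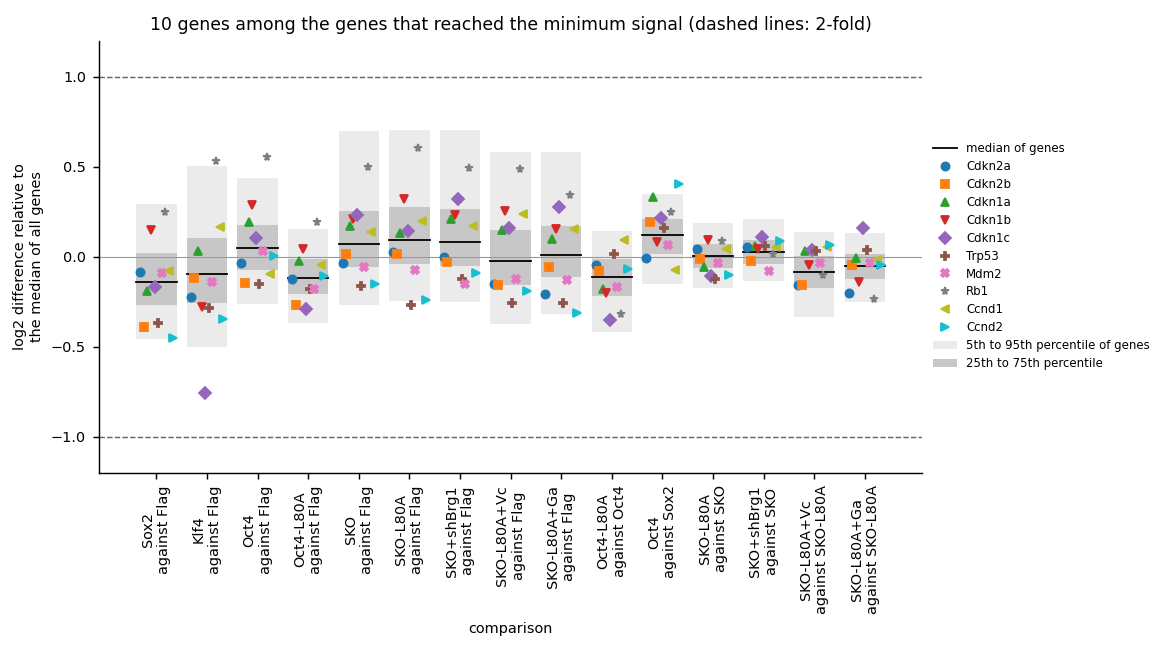
Log2 difference relative to the median of all genes for the 10 genes in 15 comparisons, over the 5th to 95th and 25th to 75th percentiles of genes at the minimum signal; dashed lines mark 2-fold. No gene reached 2-fold, and Cdkn1c in Klf4 (-0.76, a value under the minimum signal) was the farthest from 0.

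The INK4 genes lie next to each other on chromosome 4, and their signals correlated weakly over conditions. Cdkn2a (ENSMUSG00000044303, 89274473 to 89294619) had 10.6 and 18.8 in Flag, 9.50 and 16.4 in Sox2, 11.3 and 13.4 in Klf4, 14.6 and 17.1 in Oct4, and 7.72 and 17.3 in Oct4-L80A. It had 22.1 and 18.0 in SKO, 19.4 and 21.9 in SKO-L80A, 25.8 and 18.8 in SKO+shBrg1, 14.5 and 12.0 in SKO-L80A+Vc, and 15.7 and 14.3 in SKO-L80A+Ga. Its differences from Flag were small, between -0.23 (Klf4) and 0.02 (SKO-L80A), and the columns disagreed in sign in SKO, SKO-L80A, SKO+shBrg1, SKO-L80A+Vc and Oct4. With Gadd45a added to SKO-L80A, the columns of Cdkn2a stood at -0.20 and -0.21 relative to SKO-L80A, and 9.30% of genes were lower still.

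Relative to the column median, Cdkn2b (ENSMUSG00000073802, 89306289 to 89311032) was lowest in Sox2 in both columns. It had 19.4 and 27.2 in Flag and 12.4 and 21.5 in Sox2, a difference of -0.48 in column 1 and -0.30 in column 2, or -0.39 in the mean. Of genes at the minimum, 9.01% were lower, and a correction for the trend with signal level (lowess) left -0.21. The other conditions lay between -0.27 (Oct4-L80A) and 0.02 (SKO-L80A) of Flag, with signals from 12.3 to 42.2. Over the 10 condition means the Cdkn2a and Cdkn2b signals correlated at r of 0.23 relative to the column medians and 0.35 relative to the median difference from Flag. The 2 columns of Cdkn2a agreed over conditions at r of 0.63 and 0.06 in these scalings, and those of Cdkn2b at 0.40 and 0.81. A low r between the genes therefore cannot show that they diverge. Beyond Cdkn2b, Dmrta1, a DM-domain transcription factor gene 377166 bp away, stood 1.16 above Flag in Klf4, 1.07 in SKO and 1.16 in SKO-L80A, where Cdkn2b stood at -0.12, 0.01 and 0.02. Mtap, the metabolic gene on the Cdkn2a side, lay between -0.01 and 0.23.

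Among the CIP/KIP inhibitors, Cdkn1c had the lowest value of all members, with Klf4 alone. Cdkn1c (ENSMUSG00000037664, chromosome 7, 143458339 to 143461059) is an imprinted gene. The Klf4 library had 2.96 and 3.85. Flag had 4.37 and 7.38. Cdkn1c had 3.05 and 7.32 in Sox2, 6.68 and 7.39 in Oct4, and 2.56 and 6.59 in Oct4-L80A. It had 11.7 and 8.09 in SKO, 8.81 and 9.36 in SKO-L80A, 11.4 and 11.0 in SKO+shBrg1, 7.28 and 6.03 in SKO-L80A+Vc, and 8.30 and 8.72 in SKO-L80A+Ga. Relative to the column median, Klf4 was lowest in both columns, and 0.61 below the next condition, Oct4-L80A. Relative to the median difference from Flag it was also lowest in both columns, with a gap of 0.47. A lowest value in Klf4 with a gap of 0.61 or more, relative to the column median, was found in 0.402% of genes at the minimum signal.

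The difference between Klf4 and Flag at Cdkn1c was -0.67 in column 1 and -0.84 in column 2, or -0.76 in the mean, a 0.592-fold level. Both conditions were under the minimum signal, so the gene could not be called there. Without a minimum it passed the 1.5-fold rule, as did 6.64% of all genes, and it did so after quantile normalisation (-0.96), where 2.49% of all genes passed. Conditions with Klf4 among other factors did not show the low value, since SKO stood at 0.23, SKO-L80A at 0.14, SKO+shBrg1 at 0.32, SKO-L80A+Vc at 0.16 and SKO-L80A+Ga at 0.28 of Flag. By lowess, 5 of the 9 conditions were below Flag, against 3 in the main measure, so the sign of the smaller differences depends on the scaling. In the neighbourhood, Slc22a18, an imprinted transporter gene, and Kcnq1, a potassium channel gene, stood 1.11 and 0.80 above Flag in Klf4, on low mean signals of 1.83 and 3.12. The list of 11 genes from the imprinted region had 0 calls by the 2-fold rule against Flag, which 0.0182% to 1.4% of all genes passed. Only 6 or 7 of the 11, depending on the comparison, reached the minimum signal and could be called. The list's 1 call by the 1.5-fold rule was Tssc4, lower in Klf4 (-0.81), named after its value was seen.

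Cdkn1a (ENSMUSG00000023067, chromosome 17, 29090979 to 29100722), the p53 target p21, had a smaller standard deviation over conditions than between columns. Its standard deviation over the 10 condition means was 0.0861, against 0.201 between columns, relative to the column medians. Relative to the median difference from Flag these were 0.125 and 0.244. It had 15.9 and 22.5 in Flag, 13.0 and 18.5 in Sox2 and 36.1 and 26.3 in SKO, with a lowest value of 12.1 and a highest of 40.0. Differences from Flag ran from -0.19 (Sox2) to 0.21 (SKO+shBrg1). Beside it, the Rab GTPase gene Rab44 stood 1.45 above Flag in Klf4 on a mean signal of 3.23, where Cdkn1a stood at 0.03, and the splicing factor gene Srsf3 lay between -0.45 and -0.13.

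Relative to the column median, Cdkn1b (ENSMUSG00000003031, chromosome 6, 134920401 to 134925525), which encodes p27, was lowest in Klf4 in both columns. Its deposited signal was 10.8 and 13.0 there, compared with 10.8 and 18.5 in Flag and 8.60 and 19.7 in Oct4-L80A. The relative differences between Klf4 and Flag were -0.12 and -0.43. It stood 0.32 above Flag in SKO-L80A, at 24.8 and 26.0, and 0.29 in Oct4, at 19.3 and 20.3. Columns disagreed in sign in Sox2, Oct4-L80A, SKO-L80A+Vc and SKO-L80A+Ga. Across the 10 condition means, Cdkn1b and Cdkn1c correlated at r of 0.76 (0.86 relative to the median difference from Flag), and both had their lowest mean in Klf4. A lowest level in Klf4 in both columns, relative to the column median, was found in 13.2% of genes at the minimum signal.

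Relative to other genes, Trp53 was highest in Flag. The shared start region of Trp53 and Wrap53 had 22.2 and 32.7 in Flag, 16.2 and 23.7 in Sox2, 21.1 and 23.9 in Klf4, 24.5 and 31.4 in Oct4, and 14.9 and 30.4 in Oct4-L80A. It had 40.5 and 29.9 in SKO, 30.0 and 34.1 in SKO-L80A, 45.4 and 32.8 in SKO+shBrg1, 23.3 and 23.6 in SKO-L80A+Vc, and 30.1 and 25.3 in SKO-L80A+Ga. Flag was highest in both columns relative to the column median and relative to the median difference of all genes. The differences from Flag, which all rest on that 1 library, were -0.37 in Sox2, -0.29 in Klf4, -0.27 in SKO-L80A, and -0.26 in both SKO-L80A+Vc and SKO-L80A+Ga. They were -0.18 in Oct4-L80A, -0.16 in SKO, -0.15 in Oct4 and -0.13 in SKO+shBrg1. Relative to the column median, a highest level in Flag in both columns was found in 16.0% of genes at the minimum signal. On the deposited values without centring, 5 of the 9 were above Flag, the highest by 0.52, and 4 were below, the lowest at -0.46. For those above Flag, the lower level exists only relative to other genes. By lowess the range was -0.30 to -0.04.

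Mdm2 (ENSMUSG00000020184, chromosome 10, 117688875 to 117710758), the p53 ligase, differed little. It had 12.5 and 19.1 in Flag, with a lowest value of 9.54 and a highest of 25.3 among all columns. Differences from Flag lay between -0.18 (Oct4-L80A) and 0.03 (Oct4), while without centring 5 conditions were above Flag and 4 below. Its columns differed with a standard deviation of 0.208, against 0.114 over condition means, relative to the column medians. Cpm, the carboxypeptidase gene whose end lies 1523 bp from Mdm2, stood between 0.03 and 0.38 of Flag.

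Rb1 had its lowest mean level in Flag. Rb1 (ENSMUSG00000022105, chromosome 14, 73192858 to 73325951) had 7.50 and 11.7 in Flag, 7.92 and 13.8 in Sox2, 12.3 and 15.5 in Klf4, 14.9 and 16.8 in Oct4, and 6.05 and 15.1 in Oct4-L80A. It had 18.3 and 20.1 in SKO, 16.0 and 26.3 in SKO-L80A, 20.5 and 20.9 in SKO+shBrg1, 12.5 and 14.9 in SKO-L80A+Vc, and 13.2 and 16.2 in SKO-L80A+Ga. The differences from the shared Flag library were 0.60 in SKO-L80A, 0.55 in Oct4, 0.53 in Klf4, 0.50 in SKO, 0.49 in SKO+shBrg1 and 0.48 in SKO-L80A+Vc. They were 0.34 in SKO-L80A+Ga, 0.25 in Sox2 and 0.19 in Oct4-L80A, the last with 0.01 in column 1 and 0.38 in column 2.

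The largest of these Rb1 differences was 1.52-fold, and in SKO-L80A 7.21% of genes stood higher than Rb1. Oct4 was the comparison in which Rb1 ranked highest, with 2.52% of genes above it. By lowess the range was 0.28 to 0.56, and column 1 alone gave 0.01 to 0.63. The standard deviation of Rb1 was 0.133 over conditions and 0.193 between columns relative to the column medians, and 0.193 and 0.161 relative to the median difference from Flag. Lpar6, a lysophosphatidic acid receptor gene inside the Rb1 span, correlated with Rb1 at r of 0.54 relative to the column medians. Lpar6 stood above Flag except in Oct4-L80A (-0.12), with 0.69 in Klf4, 0.60 in SKO and 0.24 in Oct4. The neighbours outside the gene, Rcbtb2 and Itm2b, lay between -0.33 and 0.13 and between -0.01 and 0.45.

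The D-type cyclin genes differed from each other. Ccnd2 (ENSMUSG00000000184, chromosome 6, 127125162 to 127152188) had 7.96 and 11.5 in Flag, 4.81 and 8.80 in Sox2, 6.44 and 9.02 in Klf4, 10.7 and 11.3 in Oct4, and 5.78 and 10.9 in Oct4-L80A. It had 13.3 and 11.7 in SKO, 10.5 and 12.9 in SKO-L80A, 15.0 and 13.2 in SKO+shBrg1, 9.03 and 8.35 in SKO-L80A+Vc, and 9.14 and 9.73 in SKO-L80A+Ga. Sox2 stood -0.45 from Flag, with -0.56 and -0.35 in the columns, and 5.14% of genes were lower. Klf4 stood at -0.35, SKO-L80A+Ga at -0.31 and SKO-L80A at -0.24, whereas Oct4 was at 0.00 with columns of opposite sign. Without centring, 4 of the 9 conditions were above Flag.

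Ccnd1 (ENSMUSG00000070348, chromosome 7, 144929931 to 144939831) had 8.22 and 12.5 in Flag, a lowest signal of 5.51 and a highest of 20.2. Its differences from Flag ran from -0.10 (Oct4) to 0.24 (SKO-L80A+Vc). The standard deviation over conditions was 0.0927 relative to the column medians and 0.125 relative to the median difference from Flag. Fgf15, a fibroblast growth factor gene beside Ccnd1, lay 0.17 to 0.68 above Flag, and Tigar, the p53-regulated phosphatase gene beside Ccnd2, between -0.31 and 0.10.

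**Figure D4:**
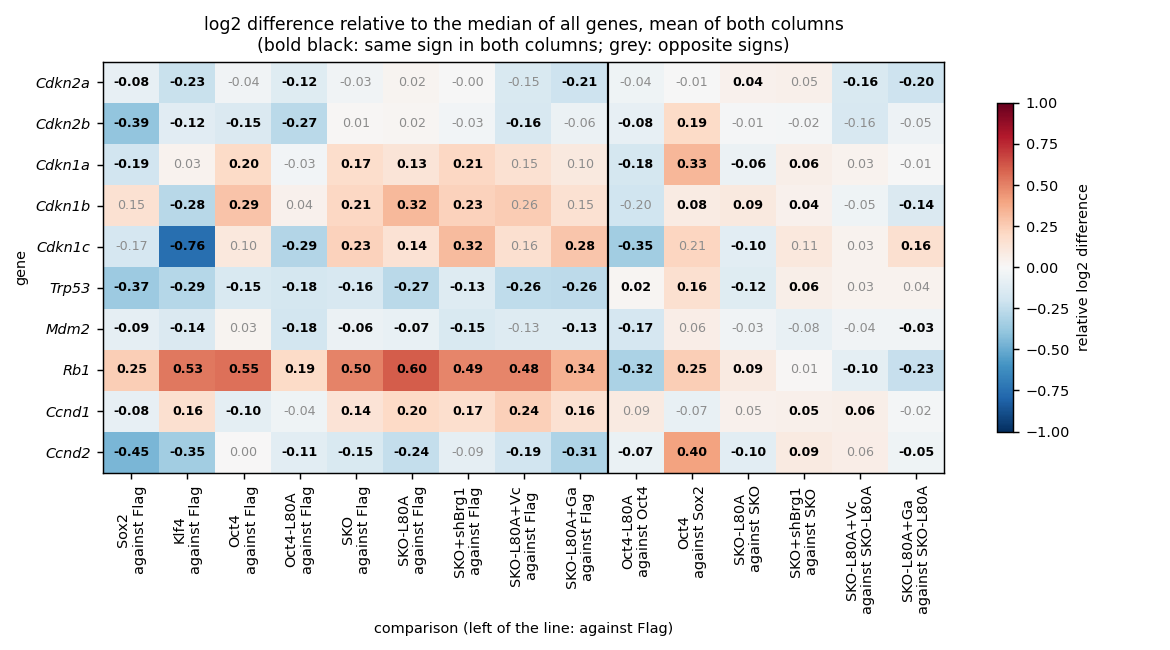
Log2 difference relative to the median of all genes for each of the 10 genes (rows) in 15 comparisons (columns), as the mean of both columns; bold values have the same sign in both columns. Rb1 runs from 0.19 to 0.60 and Trp53 from -0.37 to -0.13 against the shared Flag library.

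The columns of a condition give a rough scale for these values. The standard deviation between columns includes any steady offset between them. It is also that of 1 column, whereas each condition mean averages both. A ratio of 1 between the standard deviations is therefore not a neutral point. Relative to the column medians, the median standard deviation of the 10 genes was 0.123 across condition means and 0.142 between columns, against 0.133 and 0.157 over genes at the minimum signal. Cdkn1c (ratio 1.90), Ccnd2 (1.60), Trp53 (1.11) and Cdkn2a (1.07) had the larger standard deviation over conditions. The other 6 had the larger one between columns. Relative to the median difference from Flag, a scaling added after the values were seen, Cdkn1c (1.69), Ccnd2 (1.24) and Rb1 had a ratio above 1. Trp53 (0.588) and Cdkn2a (0.542) did not. For Cdkn1c the standard deviation over conditions of 0.289 exceeded that of 95.4% of genes relative to the column medians. The columns agreed across conditions at r of 0.81 for Ccnd2, 0.74 for Trp53, 0.74 for Cdkn1c and 0.07 for Rb1 (10 conditions each), and under the added scaling at 0.75, 0.53, 0.71 and 0.49. The sources used here do not state what separates the columns.

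**Figure D5:**
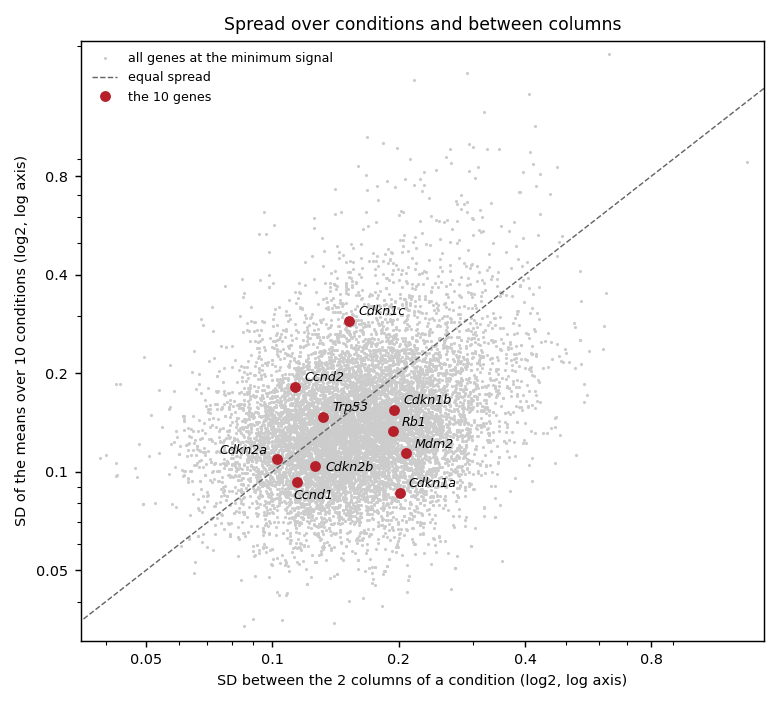
Standard deviation of the means over 10 conditions against the standard deviation between the columns of a condition, both on the log2 scale relative to the column medians with log axes, for 11447 genes (grey) and the 10 genes (red). Cdkn1c (0.289) and Ccnd2 (0.182) lie above the line of equal spread, Cdkn1a (0.0861) below it.

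The other 6 comparisons do not use Flag. In Oct4-L80A against Oct4, where 0.209% and 0.469% of all genes were called by the 2-fold and the 1.5-fold rule, the 10 genes lay between -0.35 (Cdkn1c) and 0.09 (Ccnd1). Rb1 was at -0.32, with -0.54 in column 1 and -0.10 in column 2, and the libraries also differed in their signal at Sox2. In Oct4 against Sox2, with 0.0455% and 0.114% called, Ccnd2 stood 0.40 higher and Cdkn1a 0.33 higher in the library labelled Oct4, in both columns. Of genes at the minimum, 2.57% were above Ccnd2 and 6.29% above Cdkn1a. In SKO-L80A against SKO, with 0.00911% called by either rule, the range was -0.12 (Trp53) to 0.09 (Cdkn1b).

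The libraries with the Brg1 hairpin, vitamin C or Gadd45a added differed little at the 10 genes from the libraries without them, with 1 library each. Whether the hairpin lowered Brg1 was not measured here. Brg1 is the ATPase of a chromatin remodelling complex, vitamin C a cofactor of demethylating dioxygenases and Gadd45a a p53 target linked to DNA repair and demethylation. SKO+shBrg1 lay between -0.08 (Mdm2) and 0.11 (Cdkn1c) of SKO, with 0.00455% of genes called by either rule. SKO-L80A+Vc lay between -0.16 (Cdkn2b) and 0.06 (Ccnd2) of SKO-L80A, with 0.00911% and 0.146% called. Without centring, Cdkn2b passed the 1.5-fold rule as lower in that comparison (-0.64), where 8.31% of all genes passed that rule in either direction. SKO-L80A+Ga lay between -0.23 (Rb1) and 0.16 (Cdkn1c) of SKO-L80A, with 0% and 0.00911% called. Rb1 was below in both columns there, -0.17 and -0.30, and 6.25% of genes were lower.

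Over the 10 condition means, pairs of the 10 genes correlated between r of -0.61 (Trp53 and Rb1) and 0.92 (Trp53 and Ccnd2). Cdkn2a correlated at 0.77 with Mdm2 and 0.76 with Trp53. Relative to the median difference from Flag these 4 values were -0.39, 0.90, 0.56 and 0.50. These are descriptions over 10 points that share the same libraries and the same subtraction. The genes most like each member among 11447, relative to the column medians, were Wrap53 (r of 1) and Prdx1 (0.979) for Trp53, Rcn3 (0.975) and Med26 (0.964) for Cdkn2a, Gstm5 (0.969) and Amdhd2 (0.956) for Cdkn1c, and Prmt5 (0.967) and Gpt2 (0.958) for Cdkn2b. They were Zfp260 and Smim14 (0.964 each) for Ccnd2, Gm49027 and Diablo (0.963 each) for Cdkn1b, Snrnp70 (0.962) and Utp14a (0.959) for Mdm2, and Tsc22d1 (0.942) and Gpd1l (0.928) for Cdkn1a. Ccnd1 had Tchh (0.896) and Slc16a9 (0.891), and Rb1 had the lowest first value, with Ccser1 (0.895) and Nod1 (0.877).

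Around the 10 genes, few genes of the wider pathway passed the 2-fold rule. Of the INK4 and CIP/KIP list (7 of 7 genes in the table), cyclins and CDKs (19 of 19), RB and E2F genes (13 of 13), and p53 family and regulators (22 of 23), 0 genes were called by the 2-fold rule against Flag. The Ink4a-Arf regulators (28 of 28), such as Polycomb genes, and the proliferation list (24 of 24) also had 0 calls. Between 0.0182% (Oct4-L80A) and 1.4% (SKO-L80A) of all genes passed this rule against Flag, so 0 calls in a list are close to the background. The p53 target list (34 of 35) had 10 calls, all higher, over 6 comparisons that share Flag. Over its genes at the minimum signal the list median lay between -0.24 and 0.05, against -0.14 to 0.09 for all such genes. The 10 calls came from 2 genes, with at most 2 in 1 comparison. In those comparisons 0.829% to 1.4% of all genes passed the same rule, or 1.56% to 2.45% of genes at the minimum signal. Of the genes that passed in SKO, 274 were higher and 19 lower.

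Those p53 targets were Perp and Fas. Perp, a membrane protein of desmosomes and apoptosis, had 2.17 and 5.12 in Flag and 6.15 and 9.70 in Klf4, a 2.22-fold difference. It was 2.09-fold above Flag in SKO, 2.06-fold in SKO-L80A, 2.38-fold in SKO+shBrg1 and 2.32-fold in SKO-L80A+Vc. Fas, the death receptor, had 4.41 and 11.2 in Flag and 24.9 and 21.1 in SKO, a 2.22-fold difference. It was 2.24-fold higher in SKO-L80A, 2.26-fold in SKO+shBrg1, 2.01-fold in SKO-L80A+Vc and 2.07-fold in SKO-L80A+Ga. Fas stood out more in column 1 (1.49 in SKO) than in column 2 (0.81). Cdkn1a and Mdm2, which share p53 as a regulator with these genes, stood at 0.17 and -0.06 in SKO. Of the senescence secretory list (22 of 22), Ccl7, a monocyte chemokine, was 2.08-fold higher in SKO-L80A+Vc.

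The 1.5-fold rule called further pathway genes out of 166 other than the members, and those given here were named after their values were seen. Of those at the minimum signal it called 8 of 136 in Klf4, 3 of 145 in Oct4, 7 of 148 in SKO, 4 of 149 in SKO-L80A, 5 of 149 in SKO+shBrg1, 3 of 142 in SKO-L80A+Vc and 3 of 144 in SKO-L80A+Ga. Among all genes at the minimum the shares called were 4.24%, 1.55%, 5.34%, 5.58%, 5.42%, 3.82% and 3.24% in the same order. The pathway counts are close to this background. In Klf4, Cbx6 (-0.91) and Cbx8 (-0.76), Polycomb subunits of a complex known to silence Cdkn2a, were lower, as were Cdc6 (-0.69), a replication licensing factor, and Tssc4. Phc2, another Polycomb subunit, was higher (0.92), as were Perp and Ccl7, while Cdkn2a itself stood at -0.23. In Oct4, the genes Tbx2 (0.87), a repressor of Cdkn2a in other cells, Foxm1 (0.74), a mitotic transcription factor, and Igfbp3 (0.79), an IGF-binding protein, were higher. The same 3 genes were lower in Oct4-L80A against Oct4 (-0.75, -0.71 and -0.79), a comparison that shares the library labelled Oct4. They were 3 of 144 pathway genes at the minimum there, against 0.917% of all genes at the minimum. In Sox2 and in Oct4-L80A against Flag, 0 of the 166 genes were called, and 1.33% and 0.326% of all genes at the minimum.

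In SKO, Ezh1 (0.79), a histone methyltransferase, Kdm6b (0.67), a histone demethylase linked to Cdkn2a activation, Ccl2 (0.72), Ccl7 (0.88) and Igfbp3 (0.78) were higher beside Fas and Perp. SKO-L80A had E2f4 (0.69), a repressive E2F partner of Rb1 relatives, and Ccl2 (0.85), and SKO+shBrg1 had Kdm6b (0.76), Ccl2 (0.74) and Igfbp3 (0.86). SKO-L80A+Ga had Ccl2 (0.85), and SKO-L80A+Vc had no gene other than Fas, Perp and Ccl7. Against SKO-L80A, SKO-L80A+Vc had E2f2 higher (0.69), 1 of 149 pathway genes at the minimum, against 0.256% of all genes at the minimum. No other pathway gene passed this rule in the remaining comparisons. The calls against Flag all rest on the same Flag library, and none of these genes has a replicate.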

How the data were processed

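ATAC-seq libraries of 10 conditions of mouse fibroblasts, 1 library each, were analysed. The authors deposited a signal for 21965 genes in 20 columns, 2 per condition. The sources used here do not state the window, the scaling or how the columns relate, and both columns were counted as 1 sample. Per the submitters' processing notes the build was mm10, and the tools included Bowtie2 2.2.5 and SAMtools 1.3.1, Trimmomatic 0.35 and cutadapt 1.13, MACS2 2.1.0 and bedtools 2.25.0, with DESeq2 1.22.2, Picard and deepTools; their steps are not stated. The depth behind each deposited signal is unknown, so no interval was computed. Column sums ran from 112439 to 370390.

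Differences were computed in Python 3.11.15 (numpy 2.4.6, pandas 2.3.3, statsmodels 0.14.6) as log2(signal + 0.138), the 10th percentile of positive values, minus the median difference of all genes per column. Levels, standard deviations and correlations over conditions used the column median instead. Lowess used a fraction of 0.3 and 3 iterations. The procedure was tested on simulated data. Symbols and promoters came from RefSeq GRCm38.p6.

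The 10 genes and all lists were chosen with earlier results of these data known. Named genes were the members, their chromosome neighbours, the 2 genes of highest Pearson r over conditions, and up to 3 genes per list and direction past 2-fold against Flag; any others were chosen after their values were seen. Alternatives were no centring, quantile normalisation, lowess, a pseudocount 4 times larger or smaller, no minimum, and each column alone. The result of 1 pathway gene is not reported here.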

Additional observations from a re-analysis of the deposited data

Results flagged for a closer look

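At 2 of the 10 genes the exchange of Oct4 for L80A went in opposite directions in both columns when made alone (Oct4-L80A against Oct4) and within SKO (SKO-L80A against SKO). Rb1 was at -0.54 and -0.10 alone and at 0.02 and 0.16 within SKO, a difference of -0.41 between the mean effects. Trp53 was at 0.03 and 0.00 alone and at -0.21 and -0.03 within SKO, a difference of 0.14. The difference was not tested, since each condition has 1 library. Of 11447 genes at the minimum signal, 1414 (12.4%) showed such opposite directions. The library labelled Oct4 carried a Sox2 signal that Oct4-L80A did not, and the part of this in the values was not tested.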

How the results depend on the processing

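Of the 15 comparisons, the count of members past 2-fold was 0 in all with quantile normalisation, lowess, either pseudocount, no minimum signal and each column alone. On the deposited values without centring it was 1 (Rb1) in SKO, SKO-L80A and SKO+shBrg1 against Flag. By the 1.5-fold rule, which needs both columns and has no value for 1 column alone, it was also 1 (Rb1) in those 3 comparisons without centring, and 1 (Cdkn2b) in SKO-L80A+Vc against SKO-L80A. In Klf4 against Flag it was 1 (Cdkn1c) with quantile normalisation and 1 with no minimum signal. The median standard deviation of members over conditions was 0.375 without centring, against 0.123, since whole libraries shift, and 0.129 relative to the median difference from Flag, a scaling added after the values were seen. Of 150 differences of members, 15 exceeded 1.25-fold, and none of these changed sign under any of the 8 alternatives. Removing the minimum leaves each difference as it is, and the pseudocounts moved differences by at most 0.0676. Those settings therefore could not change such a sign. Leaving out the centring could not do so either. The mean shift of all genes had the same sign as these differences or, in Klf4 against Flag, was only 0.03. Among all 150, 34 changed sign without centring, 25 with lowess and 25 with quantile normalisation. No paired analysis was possible because each condition has 1 library. The depth is unknown, so the limits of detection cannot be stated.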
